A study of Homo sapiens with 14 samples.

Results

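The DNA replication genes are 43 genes named by symbol that encode the machinery of chromosome duplication: the MCM helicase, the origin recognition complex, licensing and activation factors, the sliding clamp and its loader, the replicative polymerases, single-strand binding and flap-processing proteins, and enzymes of deoxynucleotide synthesis. Membership was by symbol. All 43 symbols matched an Ensembl identifier of the deposited table, which holds 18006 genes. MCM7, a subunit of the MCM ring, was listed at 0 in all 14 libraries, which need not mean that it was not expressed, since dividing cells need it and how reads were counted is not known here. The other 42 members passed the filter on low counts and were tested among 12080 genes.

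HEK 293 cells, a cultured line of human embryonic kidney origin, gave the RNA, in 5 groups of libraries: CFIm25 knockdown (n = 2), CFIm68 knockdown (n = 3), CFIm25 overexpression (n = 3), CFIm68 overexpression (n = 3) and control (n = 3). NUDT21 encodes CFIm25 and CPSF6 encodes CFIm68, both part of cleavage factor I, which binds UGUA in nascent RNA and helps to choose the site of cleavage and polyadenylation. Knockdown was by siRNA. The controls carry a wild-type label, and the sources used here give neither their own transfection, nor the vectors used for overexpression, nor whether any line is 1 clone. Nothing states that the libraries of a group came from separate cultures, and the p-values cover the spread between libraries alone, which may be technical.

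Origins are licensed in G1 phase, when the origin recognition complex, CDC6 and CDT1 load MCM rings onto DNA. Replication starts in S phase: CDC45 and the GINS complex join the ring to make the active helicase, polymerase alpha-primase starts each strand, and polymerases delta and epsilon extend it on the PCNA clamp that the RFC complex loads. Many of these genes are transcribed under E2F transcription factors as cells enter S phase, so that in RNA from a whole culture fewer cells in S phase and less RNA per cell cannot be told apart.

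Short stretches of member genes are shown for the sequence features that bear on this design: promoter letters read by E2F factors, and UGUA near the 3′ end, the letters that cleavage factor I binds. Both strands of the 250 bases before the RefSeq start were searched for TTTCCCGC and TTTGGCGC (reverse complements GCGGGAAA and GCGCCAAA). At least 1 of these 8-letter words was present for 12 of the 37 members with a RefSeq promoter (32.4%), against 3.9% of 9773 tested genes and 2.4% of all 27305 genes of the promoter table. The 12 genes were MCM3, MCM6, MCM7, ORC3, CDT1, GINS2, PCNA, RFC3, POLA1, POLE, LIG1 and TYMS, and capitals mark the word in 7 of them (GRCh38.p14, 5′ to 3′ on the strand of the gene).
MCM3 promoter, chr6:52284898-52284927, minus strand: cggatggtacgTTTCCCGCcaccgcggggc
MCM6 promoter, chr2:135876515-135876544, minus strand: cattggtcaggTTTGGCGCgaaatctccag
CDT1 promoter, chr16:88803743-88803772, plus strand: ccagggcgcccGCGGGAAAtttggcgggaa
PCNA promoter, chr20:5126663-5126692, minus strand: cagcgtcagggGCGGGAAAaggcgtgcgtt
RFC3 promoter, chr13:33818083-33818112, plus strand: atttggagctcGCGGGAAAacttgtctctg
POLE promoter, chr12:132687343-132687372, minus strand: ctgggtgggagcGCGCCAAAtttctcccct
LIG1 promoter, chr19:48170440-48170469, minus strand: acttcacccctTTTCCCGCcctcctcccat

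In the last 100 bases of the principal GENCODE 29 transcript, TGTA (UGUA in RNA) was present in 23 of 43 members (53.5%), against 54.5% of 11830 tested protein-coding genes. AATAAA, the usual polyadenylation signal, was present in the last 50 bases of 30 members (69.8%), against 63.9% of those genes. An annotation with only 1 end, after merging ends within 100 bases, was found for 53.5% of members and 43.6% of tested protein-coding genes, and the median 3′ UTR was 691 bases in members and 1082.5 bases in those genes. The following sites belong to members described further on, with TGTA in capitals (hg38, 5′ to 3′ on the strand of the gene).
MCM5 end, chr22:35425351-35425380, plus strand: aaagtaattgccaTGTAaaaatgacacgaa
GINS1 end, chr20:25448490-25448519, plus strand: ctcatggtgttttTGTAaattacatcaaca
RFC3 end, chr13:33837397-33837426, plus strand: gttcaatattttTGTAtatacttttaaagc
RFC5 end, chr12:118031701-118031730, plus strand: ttggcattgtgtcTGTAtctaatttaaaca
POLD2 end, chr7:44114702-44114731, minus strand: gcagtgtcggcatTGTAaataaagcctgag
POLE end, chr12:132623766-132623795, minus strand: ctttgtttttattTGTAtttcatactgaag
No TGTA was found in that window of ORC4, ORC5, RRM2, LIG1, FEN1 or PRIM1, which are among the members with the largest changes described here. A match of letters describes the sequence only, and use of these sites was not measured by counts per gene.

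The targeted genes followed their labels, in CPM (read counts scaled to a common library size by TMM). NUDT21 stood at 54.6 and 52.9 CPM in CFIm25 knockdown, 242, 231 and 224 under CFIm68 knockdown, 782, 734 and 671 in CFIm25 overexpression, 646, 597 and 549.7 in CFIm68 overexpression, and 537, 500.4 and 505 in control. CPSF6 stood at 526 and 540.3 CPM in CFIm25 knockdown, 40.5, 41.9 and 42.5 under CFIm68 knockdown, 263, 256 and 237 in CFIm25 overexpression, 717, 749.9 and 723 in CFIm68 overexpression, and 274, 262 and 268 in control. The transcript of the partner also moved: NUDT21 fell by 1.14 on the log2 scale in CFIm68 knockdown (adjusted p = 1.89e-15) and CPSF6 rose in CFIm25 knockdown (0.99 ± 0.052, adjusted p = 1.65e-14, both by edgeR's quasi-likelihood test with Benjamini-Hochberg adjustment). Total counts were 15822467 to 33895308 per library. Of the marker lists, HEK 293-type neuronal and progenitor genes (6 of 7 in the table, 0 of them at 0 in any group) summed to 247 to 376 CPM, keratinocyte and HeLa-type genes (5 of 6 in the table) to 3.76 to 14.9 CPM, mesenchymal genes to 25.3 to 68.6 CPM with COL1A2 and DCN at 0, and blood genes to 0.202 to 2.07 CPM with PTPRC and HBB at 0. The HEK 293-type sum was 355 to 376 CPM in CFIm25 knockdown, 283 to 295 CPM in CFIm68 knockdown, 272 to 300.1 CPM in CFIm25 overexpression and 247 to 277 CPM in CFIm68 overexpression, against 322 to 352 CPM in control. Most of it came from NEFL, with group means of 209 to 302 CPM. Group means were 17.7 to 33.1 CPM for LIN28B, 13.3 to 23.7 for NES, 7.34 to 16.1 for INA, 2.07 to 4.21 for PAX2 and 0.138 to 0.679 for NEFM. The keratinocyte and HeLa-type sum was 6.08 to 7.76, 10.7 to 14.9, 10.98 to 13.97 and 3.76 to 3.95 CPM in those groups, against 4.77 to 5.28 CPM in control, with most of it from KRT17. The mesenchymal sum was 53.3 to 58.2, 66.3 to 68.6, 47.3 to 54.6 and 25.3 to 28.7 CPM, against 50.8 to 55.4 CPM in control, with most of it from COL1A1. The blood sum was 0.363 to 0.509, 0.202 to 0.477, 0.429 to 0.985 and 1.45 to 2.07 CPM, against 0.737 to 0.943 CPM in control. The part of these marker differences in the results below was not tested.

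Summed over the list, the members drew 0.917% to 1.013% of the raw total counts of a library, before TMM scaling. The TMM factors were 1.008 to 1.05 in CFIm25 overexpression and 0.973 to 0.982 in CFIm68 overexpression, against 0.988 to 0.996 in control. The share was 0.976% ± 0.0013 (SD, n = 2) in CFIm25 knockdown, 0.962% ± 0.0034 (n = 3) in CFIm68 knockdown, 0.999% ± 0.0125 (n = 3) in CFIm25 overexpression and 0.927% ± 0.0085 (n = 3) in CFIm68 overexpression, against 0.962% ± 0.012 (n = 3) in control. On raw totals the CFIm25 overexpression libraries all lay above the controls and the CFIm68 overexpression libraries all below them. The exact two-sided permutation test gave p = 0.1 for each, the smallest that 3 against 3 allows. The TMM factors of these groups also lay above and below those of control, and the separation was not tested on TMM-scaled shares. On raw totals both CFIm25 knockdown libraries (0.9749% and 0.9768%) also lay above all controls (0.9482% to 0.971%). With 2 libraries against 3, the exact two-sided permutation test gave p = 0.2 although these groups did not overlap. This separation was not tested on TMM-scaled shares either. For CFIm68 knockdown the exact two-sided permutation test gave p = 1.0, where 0.1 is the smallest that 3 against 3 allows.

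Individual members moved in both directions. In CFIm25 knockdown 14 of 42 tested members were higher than control, 9 were lower and 19 did not pass an adjusted p of 0.05, the threshold for a call here and below (edgeR's quasi-likelihood test, Benjamini-Hochberg adjustment over all tested genes). Members passed at 54.8%, where 47.6% of all tested genes did (24.4% higher and 23.2% lower), and the median log2 fold change was 0.10 for members and 0.00 for all genes. In CFIm68 knockdown 14 were higher, 13 lower and 15 not past the threshold (64.3%, against a background of 56.4%, 28.3% higher and 28.1% lower; medians -0.03 and 0.00). In CFIm25 overexpression 12 were higher, 9 lower and 21 not past it (50%, against 56.7%, 27.7% higher and 29.1% lower; medians -0.00 and -0.00). In CFIm68 overexpression 5 were higher, 10 lower and 27 not past it (35.7%, against 29.8%, 14.5% higher and 15.4% lower; medians -0.07 and 0.01). Each share was near its background, so the count of calls does not set the list apart from other genes. Libraries did not overlap control for 34 of 42 members in CFIm25 knockdown (64.1% of all tested genes did the same), 32 in CFIm68 knockdown (64.4%), 24 in CFIm25 overexpression (57.8%) and 23 in CFIm68 overexpression (40%). These 4 comparisons use the same 3 control libraries and are not independent of each other.

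**Figure D1:**
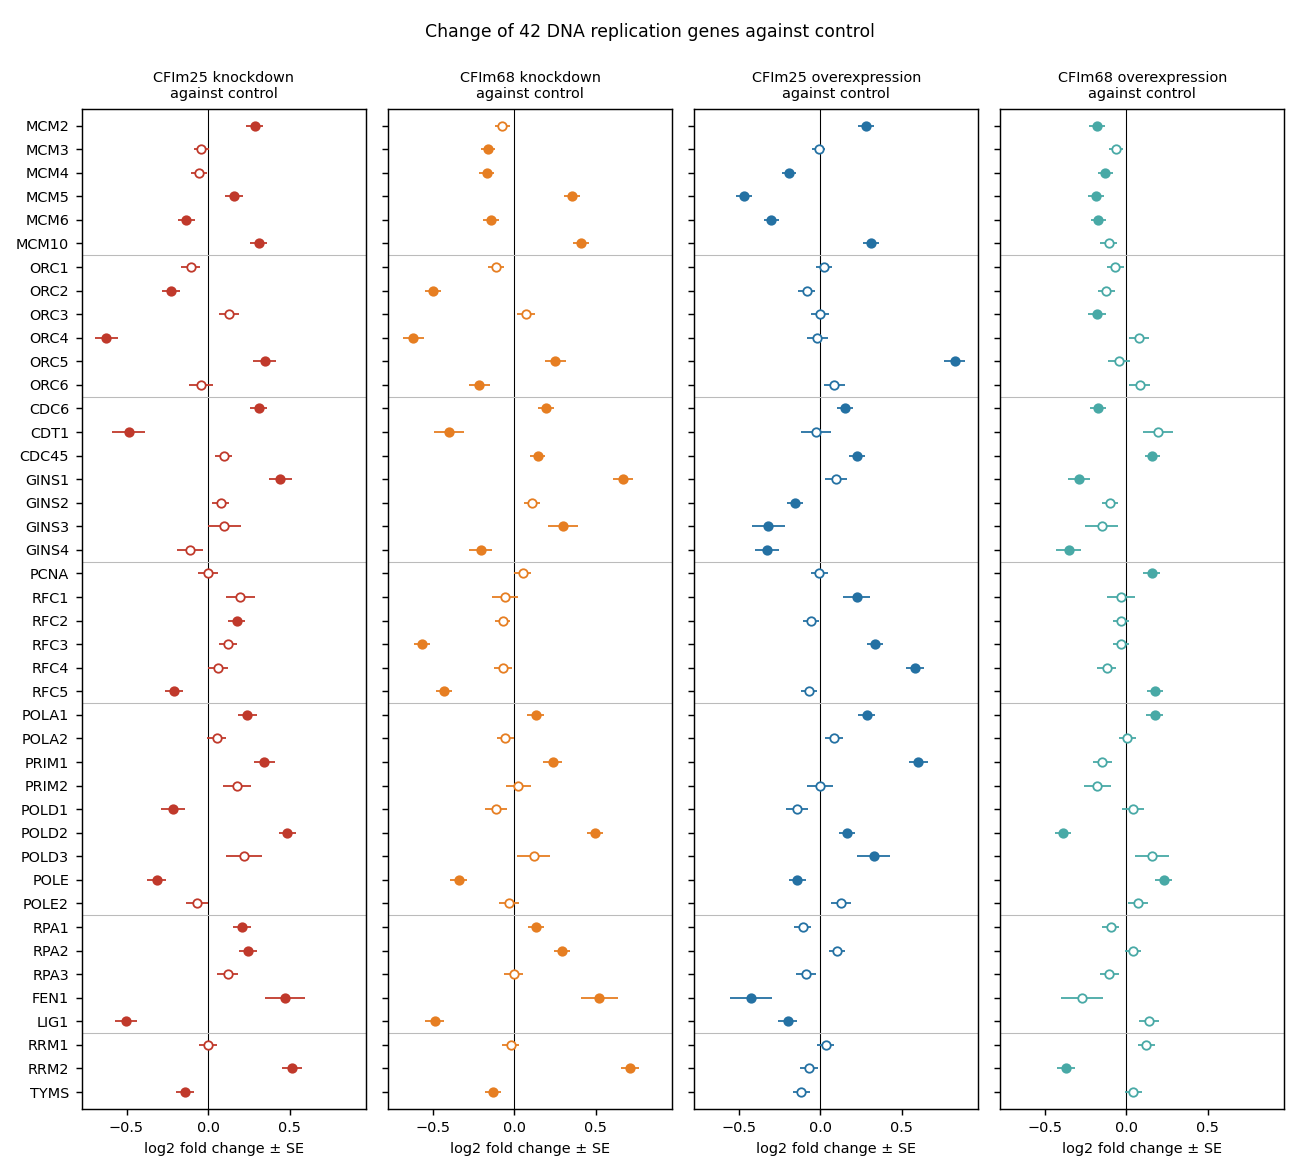
Log2 fold change against control with its standard error (horizontal axis) for 42 replication genes, 1 row each, in the 4 perturbed groups. Filled points passed an adjusted p of 0.05 and grey lines separate the functional groups; no member moved by more than 0.82.

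Changes were small in size. Values with ± are log2 fold changes with their standard error. Only 5 members passed 1.5-fold against control in any group, 1 in CFIm25 knockdown (ORC4), 3 in CFIm68 knockdown (RRM2, GINS1 and ORC4), 2 in CFIm25 overexpression (ORC5 and PRIM1) and 0 in CFIm68 overexpression. Of all 12080 tested genes, 699 were called higher and 772 lower past 1.5-fold in CFIm25 knockdown, and 940 and 1040 in CFIm68 knockdown. The numbers were 1070 and 873 in CFIm25 overexpression and 279 and 421 in CFIm68 overexpression. ORC1, POLA2, PRIM2, POLE2, RPA3 and RRM1 passed the threshold in none of the 4 comparisons with control, with log2 fold changes between -0.18 and 0.18. By annotation 23 members share no exonic base with another gene. POLA2, POLD1, POLD3, FEN1, RRM2 and PRIM1 overlap another gene on the same strand (FEN1 with FADS2, PRIM1 with NACA), and 16 members overlap a gene on the opposite strand. The sources used here do not give the strand setting of the counting, and these values are uncertain where reads could be shared.

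The MCM2 to MCM7 proteins form the ring-shaped helicase, and the 5 measured subunits did not move as a unit. MCM2 had 646 and 661 CPM in CFIm25 knockdown, 499.8, 504 and 524 under CFIm68 knockdown, 612, 664 and 675 in CFIm25 overexpression, 461, 489 and 469 in CFIm68 overexpression, and 545, 522 and 539 in control. All CFIm25 knockdown and CFIm25 overexpression libraries lay above control and all CFIm68 overexpression libraries below it, while CFIm68 knockdown overlapped control. The log2 fold change of MCM2 was 0.29 ± 0.052 in CFIm25 knockdown (adjusted p = 4.91e-05), 0.28 ± 0.047 in CFIm25 overexpression (adjusted p = 1.06e-05) and -0.18 ± 0.047 in CFIm68 overexpression (adjusted p = 0.00464). Genes beside MCM2 moved with it in those groups, where the median log2 change of its 50 chromosomal neighbours was 0.20, 0.27 and -0.19. With the neighbours' median removed the gene's values there were 0.085, 0.013 and 0.011, with the calls gone and the last sign turned. In CFIm68 knockdown MCM2 did not follow its neighbours, whose median was 0.22 while the gene was -0.07 ± 0.047 (adjusted p = 0.188).

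MCM5 showed the widest range of the ring subunits. It stood at 416 and 425 CPM in CFIm25 knockdown, 469, 490.2 and 488 under CFIm68 knockdown, 258, 282 and 277 in CFIm25 overexpression, 329.9, 325 and 338 in CFIm68 overexpression, and 391, 352 and 387 in control. No library of any perturbed group overlapped control: both knockdowns were above it and both overexpressions below. MCM5 rose in CFIm68 knockdown (0.36 ± 0.049, adjusted p = 5.08e-07) and CFIm25 knockdown (0.16 ± 0.054, adjusted p = 0.0184), and fell in CFIm25 overexpression (-0.47 ± 0.050, adjusted p = 5.75e-09) and CFIm68 overexpression (-0.19 ± 0.050, adjusted p = 0.00488, edgeR with Benjamini-Hochberg adjustment). The call in CFIm25 knockdown was lost without control replicate 2 (0.11), CFIm25 knockdown replicate 1 (0.17) or CFIm25 knockdown replicate 2 (0.14).

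MCM3, MCM4 and MCM6 were abundant. MCM3 had 1212 and 1202 CPM in CFIm25 knockdown, 1096, 1107 and 1127 under CFIm68 knockdown, 1249, 1231 and 1217 in CFIm25 overexpression, 1202, 1206 and 1159 in CFIm68 overexpression, and 1248, 1216 and 1258 in control. CFIm25 overexpression overlapped control and the other groups lay below it. MCM3 fell in CFIm68 knockdown (-0.16 ± 0.042, adjusted p = 0.0018), where removal of the neighbours' median (-0.11) left -0.055 and no call. MCM4 had 756 and 773 CPM in CFIm25 knockdown, 693, 718 and 710.2 under CFIm68 knockdown, 708, 705 and 674 in CFIm25 overexpression, 752, 724 and 705 in CFIm68 overexpression, and 809, 782 and 793 in control.
Every perturbed library of MCM4 was below every control. It fell in CFIm68 knockdown (-0.17 ± 0.044, adjusted p = 0.00174), CFIm25 overexpression (-0.19 ± 0.044, adjusted p = 0.000489) and CFIm68 overexpression (-0.13 ± 0.044, adjusted p = 0.0273), and was -0.06 ± 0.049 in CFIm25 knockdown (adjusted p = 0.367). Removing the neighbours' median left 0.007 in CFIm25 overexpression, with the sign turned, and -0.025 in CFIm68 overexpression, whose call was also lost without control replicate 1 (-0.12), CFIm68 overexpression replicate 2 (-0.12) or CFIm68 overexpression replicate 3 (-0.11). It moved the CFIm68 knockdown value to -0.27.

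MCM6 had 557 and 559 CPM in CFIm25 knockdown, 556, 555 and 553 under CFIm68 knockdown, 518, 484 and 489 in CFIm25 overexpression, 581, 536 and 513 in CFIm68 overexpression, and 612, 601 and 622 in control. All perturbed libraries lay below all controls. The gene fell in CFIm25 overexpression (-0.30 ± 0.048, adjusted p = 5.25e-06), CFIm68 overexpression (-0.17 ± 0.048, adjusted p = 0.00727), CFIm68 knockdown (-0.14 ± 0.048, adjusted p = 0.0127) and CFIm25 knockdown (-0.13 ± 0.053, adjusted p = 0.0425). Neighbouring genes fell too (medians -0.23, -0.13, -0.18 and -0.16 in the same order of groups), and without that median the values were -0.065, -0.045, 0.034 and 0.024, none called and both knockdown signs turned. The CFIm25 knockdown call was also lost without any 1 of the 5 libraries compared (values -0.12 to -0.14) and with no filter (-0.12), and the CFIm68 overexpression call without CFIm68 overexpression replicate 3 (-0.13). MCM10, which helps to turn the loaded helicase on, rose in CFIm68 knockdown (0.41 ± 0.049, adjusted p = 4.23e-08), CFIm25 knockdown (0.31 ± 0.054, adjusted p = 2.73e-05) and CFIm25 overexpression (0.31 ± 0.049, adjusted p = 4.16e-06), and was -0.11 ± 0.050 in CFIm68 overexpression (adjusted p = 0.0985).

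Per kilobase of annotated exon, the control level was highest for PCNA (414 ± 20.9 CPM per kb, SD, n = 3) and MCM3 (339.9 ± 6). MCM6 (149 ± 2.5), MCM4 (114 ± 1.9), RRM1 (113 ± 3.8) and MCM2 (109 ± 2.4) followed, of which MCM4, RRM1 and MCM2 lay close together, and MCM5 stood at 51.3 ± 2.9 CPM per kb. Leaving MCM7 aside, the lowest values were those of POLD3 (1.65 ± 0.12 CPM per kb), GINS3 (2.63 ± 0.16) and FEN1 (3.42 ± 0.41). Proteins of the MCM ring assemble in equal numbers, and the 5 measured transcripts spanned 51.3 to 340 CPM per kb. The divisor was all annotated exon bases of a gene (7338 for MCM5, 3650 for MCM3), which can exceed the length of the expressed transcript. The part of these lengths in the span was not tested.

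Within the origin recognition complex, which marks origins and loads the ring with CDC6, the subunits split sharply. ORC4 stood at 81.6 and 76.8 CPM in CFIm25 knockdown, 83.4, 77.0 and 78.0 under CFIm68 knockdown, 135, 114 and 112 in CFIm25 overexpression, 135, 127 and 124 in CFIm68 overexpression, and 124, 121 and 121 in control. Both knockdowns lay below every other library, and both overexpressions overlapped control. ORC4 fell by 0.62 on the log2 scale in CFIm25 knockdown (SE 0.070, adjusted p = 3.82e-08) and by 0.62 in CFIm68 knockdown (SE 0.062, adjusted p = 2.06e-09).

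ORC5 stood at 42.04 and 38.8 CPM in CFIm25 knockdown, 38.8, 36.4 and 38.1 under CFIm68 knockdown, 59.2, 53.6 and 55.4 in CFIm25 overexpression, 32.5, 31.0 and 28.7 in CFIm68 overexpression, and 32.0, 31.2 and 31.8 in control. All CFIm25 overexpression libraries were above every other library, both knockdowns stood between them and control, and CFIm68 overexpression overlapped control. ORC5 rose in CFIm25 overexpression (0.82 ± 0.065, adjusted p = 2.26e-11), the largest change of any member against control, and less in CFIm25 knockdown (0.35 ± 0.072, adjusted p = 0.000248) and CFIm68 knockdown (0.25 ± 0.066, adjusted p = 0.00176). The gene lies at chr7:104126341-104208047 (hg38), and its 50 neighbours moved by a median of 0.31 in CFIm25 knockdown, 0.27 in CFIm68 knockdown and 0.32 in CFIm25 overexpression. Removing this left 0.50 in CFIm25 overexpression (adjusted p = 3.04e-07) and no call in the knockdowns (0.035 in CFIm25 and -0.013 in CFIm68 knockdown).

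ORC2 had 137 and 133 CPM in CFIm25 knockdown, 115, 112 and 108 under CFIm68 knockdown, 155, 146 and 145 in CFIm25 overexpression, 147, 145 and 143 in CFIm68 overexpression, and 163, 152 and 159 in control. The CFIm68 knockdown libraries were the lowest, followed by CFIm25 knockdown, with no overlap between them or with control, and CFIm68 overexpression also lay below control. ORC2 fell in CFIm68 knockdown (-0.50 ± 0.050, adjusted p = 1.83e-09) and in CFIm25 knockdown (-0.23 ± 0.056, adjusted p = 0.00151), the second of which was -0.056 and not called with the neighbours' median removed. ORC6 fell in CFIm68 knockdown (-0.21 ± 0.064, adjusted p = 0.00569), with -0.10 and no call after that removal, and ORC3 in CFIm68 overexpression (-0.18 ± 0.056, adjusted p = 0.0157), with -0.14 and no call. The ORC3 call was also lost without control replicate 1 (-0.17), CFIm68 overexpression replicate 2 (-0.17) or CFIm68 overexpression replicate 3 (-0.15). In CFIm25 overexpression ORC5 was the only subunit of 6 past the threshold.

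**Figure D2:**
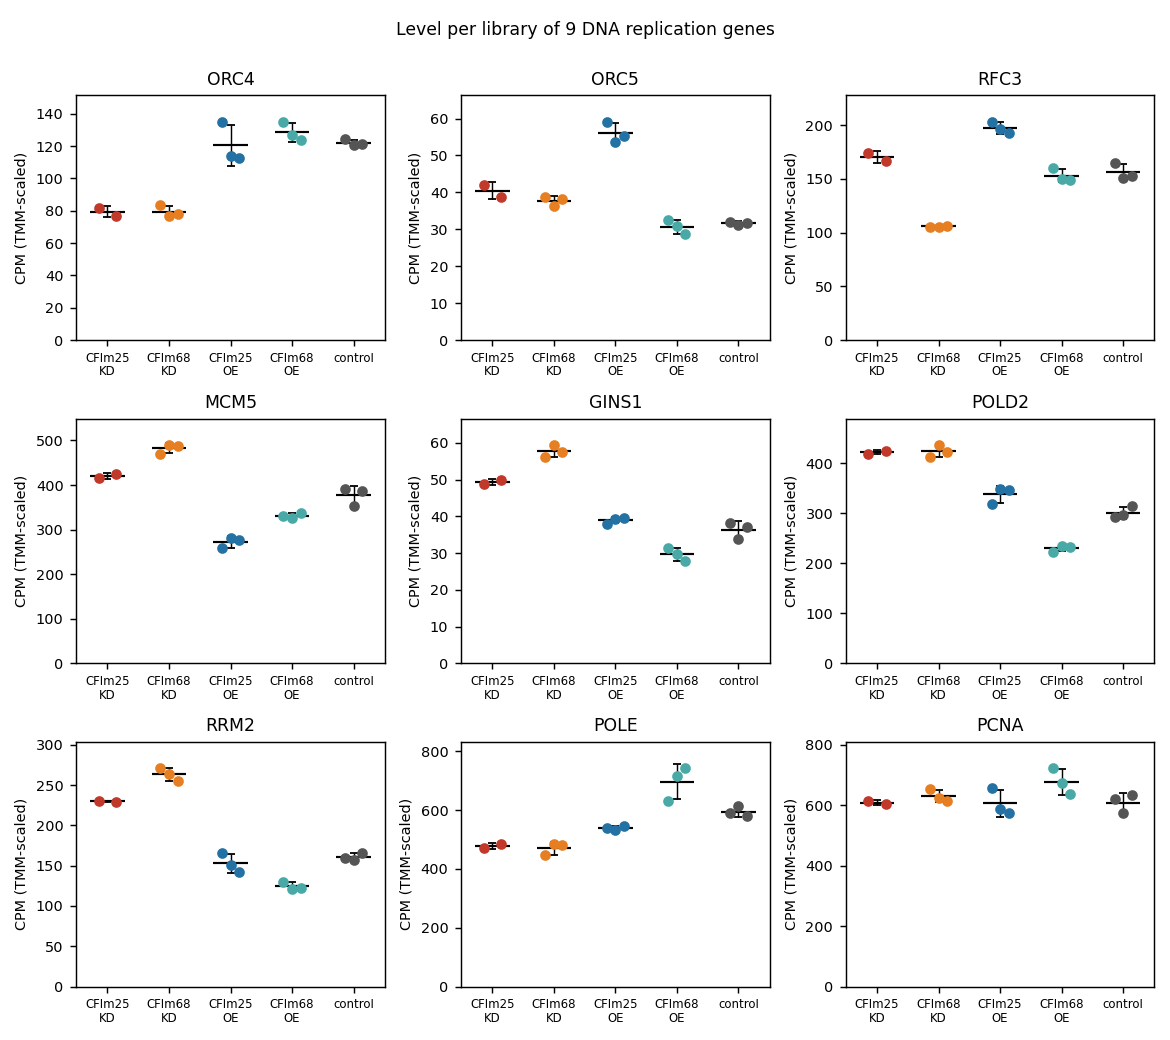
CPM after library scaling (vertical axis, from 0) of 9 replication genes in each library, by group, with the group mean and SD as bars. ORC4 is low in both knockdowns, RFC3 only in CFIm68 knockdown and ORC5 is highest in CFIm25 overexpression, while PCNA stays between 574 and 723 CPM.

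CDC6 and CDT1, the proteins that bring the ring to the origin, moved apart in the knockdowns. CDT1 had 96.3 and 97.5 CPM in CFIm25 knockdown, 110.4, 101 and 97.1 under CFIm68 knockdown, 102, 146 and 154 in CFIm25 overexpression, 143, 153 and 170.2 in CFIm68 overexpression, and 129, 139 and 139 in control. Both knockdowns lay below control, and CFIm25 overexpression replicate 1 lay below control while its other libraries lay above. CDT1 fell in CFIm25 knockdown (-0.49 ± 0.103, adjusted p = 0.000307) and CFIm68 knockdown (-0.40 ± 0.091, adjusted p = 0.000474).
The gene lies at chr16:88803213-88809258 (hg38), where its 50 neighbours fell by a median of 0.26 in CFIm25 knockdown and by 0.31 in CFIm68 knockdown. Without that median the values were -0.22 and -0.096, and neither was called. In CFIm25 overexpression CDT1 was -0.02 (adjusted p = 0.836), and 0.15 without replicate 1. CDC6 rose in CFIm25 knockdown (0.31 ± 0.053, adjusted p = 2.57e-05), CFIm68 knockdown (0.20 ± 0.048, adjusted p = 0.00102) and CFIm25 overexpression (0.15 ± 0.049, adjusted p = 0.00882), and fell in CFIm68 overexpression (-0.17 ± 0.049, adjusted p = 0.00769). Neither overexpression call held with the neighbours' median removed (0.010 for CFIm25 and -0.088 for CFIm68), and the second was also lost without CFIm68 overexpression replicate 2 (-0.15).

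Among the subunits that complete the helicase, GINS1 changed most. It stood at 48.9 and 49.98 CPM in CFIm25 knockdown, 56.2, 59.5 and 57.4 under CFIm68 knockdown, 38.0, 39.2 and 39.6 in CFIm25 overexpression, 31.3, 29.8 and 27.9 in CFIm68 overexpression, and 38.2, 33.8 and 37.2 in control. Both knockdowns lay above control without overlap, CFIm68 knockdown highest, and CFIm68 overexpression lay below control. GINS1 rose in CFIm68 knockdown (0.67 ± 0.062, adjusted p = 4.79e-10) and CFIm25 knockdown (0.44 ± 0.069, adjusted p = 6.57e-06) and fell in CFIm68 overexpression (-0.29 ± 0.068, adjusted p = 0.00159). With the neighbours' median removed (0.28 in CFIm25 knockdown, -0.12 in CFIm68 overexpression), the CFIm68 knockdown call was retained (0.46) and the others were not (0.16 and -0.18). In CFIm25 overexpression GINS1 was 0.10 (adjusted p = 0.208), and -0.17 after that removal.

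The other GINS subunits were also measured. GINS3 had 14.5 and 14.3 CPM in CFIm25 knockdown, 16.7, 17.1 and 15.9 under CFIm68 knockdown, 11.3, 10.1 and 10.8 in CFIm25 overexpression, 10.1, 13.3 and 12.8 in CFIm68 overexpression, and 14.2, 13.5 and 12.6 in control. Both knockdowns lay above control and CFIm25 overexpression below it, and CFIm68 overexpression overlapped it. GINS3 rose in CFIm68 knockdown (0.30 ± 0.091, adjusted p = 0.00614; 0.49 after removal of the neighbours' median) and fell in CFIm25 overexpression (-0.32 ± 0.099, adjusted p = 0.0078; -0.046 and not called after removal). GINS4 had 24.3 and 24.4 CPM in CFIm25 knockdown, 22.7, 23.4 and 22.5 under CFIm68 knockdown, 21.6, 20.3 and 20.9 in CFIm25 overexpression, 19.0, 22.4 and 20.3 in CFIm68 overexpression, and 26.8, 25.2 and 27.0 in control.
All perturbed libraries of GINS4 lay below control. It fell in CFIm68 overexpression (-0.35 ± 0.075, adjusted p = 0.000687), CFIm25 overexpression (-0.33 ± 0.074, adjusted p = 0.00042) and CFIm68 knockdown (-0.20 ± 0.071, adjusted p = 0.0158; -0.33 after removal). GINS2 fell in CFIm25 overexpression (-0.16 ± 0.049, adjusted p = 0.00759), a direction that turned when the neighbours' median of -0.23 was removed (0.072). CDC45, the third component of the active helicase, had 181 and 183 CPM in CFIm25 knockdown, 187, 186 and 192 under CFIm68 knockdown, 199, 197 and 202 in CFIm25 overexpression, 189.9, 193 and 188 in CFIm68 overexpression, and 167, 168 and 177 in control. Every perturbed library exceeded every control, and CDC45 rose in CFIm25 overexpression (0.23 ± 0.047, adjusted p = 0.00017), CFIm68 overexpression (0.16 ± 0.047, adjusted p = 0.0103) and CFIm68 knockdown (0.14 ± 0.046, adjusted p = 0.01). The CFIm68 knockdown call was lost without CFIm68 knockdown replicate 3 (0.12) and the CFIm68 overexpression call without control replicate 1 (0.14) or with the neighbours' median removed (0.095), which moved the values to 0.39 in CFIm25 overexpression and 0.25 in CFIm68 knockdown.

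PCNA, the sliding clamp that holds polymerases on DNA, was the most abundant member per length and moved little. It had 615 and 603 CPM in CFIm25 knockdown, 653, 624 and 615 under CFIm68 knockdown, 657, 588 and 575 in CFIm25 overexpression, 723, 673 and 637 in CFIm68 overexpression, and 619.7, 574 and 633 in control. The knockdowns and CFIm25 overexpression overlapped control, with log2 fold changes between -0.00 and 0.05, and CFIm68 overexpression lay above it. PCNA rose in CFIm68 overexpression (0.15 ± 0.055, adjusted p = 0.0322), a call lost without control replicate 1 (0.17), control replicate 2 (0.11), CFIm68 overexpression replicate 1 (0.11) or CFIm68 overexpression replicate 2 (0.16) and with the neighbours' median removed (0.058).

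Of the RFC complex that loads PCNA, RFC3, RFC4 and RFC5 held the larger changes. RFC3 had 174 and 166 CPM in CFIm25 knockdown, 105, 105 and 106 under CFIm68 knockdown, 203, 196 and 193 in CFIm25 overexpression, 159.8, 150.4 and 149 in CFIm68 overexpression, and 165, 151 and 153 in control. CFIm68 knockdown was the lowest group and CFIm25 overexpression the highest, neither overlapping control, while the 2 CFIm25 knockdown libraries lay just above control. RFC3 fell in CFIm68 knockdown (-0.56 ± 0.051, adjusted p = 2.49e-10) and rose in CFIm25 overexpression (0.34 ± 0.051, adjusted p = 2.11e-06); in CFIm25 knockdown it was 0.12 ± 0.056 (adjusted p = 0.0713).

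RFC4 had 164 and 145 CPM in CFIm25 knockdown, 142, 141 and 139.8 under CFIm68 knockdown, 230.5, 210.5 and 220.4 in CFIm25 overexpression, 139, 129.9 and 138 in CFIm68 overexpression, and 141, 146 and 155 in control. The knockdowns overlapped control, CFIm68 overexpression lay below it and CFIm25 overexpression above it, and RFC4 rose in CFIm25 overexpression (0.58 ± 0.055, adjusted p = 7.37e-10; 0.36 after removing a neighbours' median of 0.22). RFC5 had 110.2 and 111 CPM in CFIm25 knockdown, 93.0, 94.8 and 96.9 under CFIm68 knockdown, 126, 119.8 and 119 in CFIm25 overexpression, 148, 145 and 140.3 in CFIm68 overexpression, and 123, 129 and 131 in control. Both knockdowns were below control and CFIm68 overexpression above it.
RFC5 fell in CFIm68 knockdown (-0.43 ± 0.051, adjusted p = 3.64e-08) and CFIm25 knockdown (-0.21 ± 0.056, adjusted p = 0.00301) and rose in CFIm68 overexpression (0.18 ± 0.051, adjusted p = 0.00868), a call lost without control replicate 1 (0.15). RFC2 rose in CFIm25 knockdown (0.17 ± 0.052, adjusted p = 0.00664), a call lost without CFIm25 knockdown replicate 1 (0.15). RFC1, the large subunit, rose in CFIm25 overexpression (0.22 ± 0.082, adjusted p = 0.0216) although its libraries overlapped control, and this call was lost without control replicate 3 (0.11) or CFIm25 overexpression replicate 1 (0.15).

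Of the polymerase genes, POLD2 (a regulatory subunit of polymerase delta), PRIM1 (the primase catalytic subunit) and POLE (the catalytic subunit of polymerase epsilon) changed most. POLD2 had 419 and 425 CPM in CFIm25 knockdown, 413, 437 and 422 under CFIm68 knockdown, 318, 348 and 347 in CFIm25 overexpression, 223, 235 and 233 in CFIm68 overexpression, and 293, 296 and 315 in control. All groups stood clear of control: both knockdowns and CFIm25 overexpression above it and CFIm68 overexpression below it. POLD2 rose in CFIm68 knockdown (0.49 ± 0.049, adjusted p = 1.29e-09), CFIm25 knockdown (0.49 ± 0.054, adjusted p = 2.62e-08) and CFIm25 overexpression (0.17 ± 0.049, adjusted p = 0.00523), and fell in CFIm68 overexpression (-0.39 ± 0.050, adjusted p = 8.88e-07). With the neighbours' median removed the CFIm25 overexpression value was 0.11 and not called.

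POLE had 471 and 486 CPM in CFIm25 knockdown, 446, 485 and 481 under CFIm68 knockdown, 539.5, 533 and 548 in CFIm25 overexpression, 631, 717 and 743 in CFIm68 overexpression, and 590.1, 614 and 580.5 in control. The knockdowns were lowest, CFIm25 overexpression was below control and CFIm68 overexpression above it, without overlap. POLE fell in CFIm68 knockdown (-0.34 ± 0.052, adjusted p = 3.35e-06), CFIm25 knockdown (-0.31 ± 0.059, adjusted p = 7.77e-05) and CFIm25 overexpression (-0.14 ± 0.053, adjusted p = 0.0252), and rose in CFIm68 overexpression (0.23 ± 0.052, adjusted p = 0.00142). Removing the neighbours' median left -0.19 and -0.15 in the CFIm68 and CFIm25 knockdowns, both still called, turned the sign in CFIm25 overexpression (0.040) and ended the call in CFIm68 overexpression (0.13). The CFIm25 overexpression call was also lost without control replicate 2 (-0.12), CFIm25 overexpression replicate 1 (-0.13) or CFIm25 overexpression replicate 2 (-0.13).

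PRIM1 had 166 and 144 CPM in CFIm25 knockdown, 146, 145 and 141 under CFIm68 knockdown, 197, 169 and 189 in CFIm25 overexpression, 115, 107 and 109 in CFIm68 overexpression, and 123, 119 and 124 in control. It was highest in CFIm25 overexpression, above control in both knockdowns and below it in CFIm68 overexpression. PRIM1 rose in CFIm25 overexpression (0.60 ± 0.059, adjusted p = 1.47e-09), CFIm25 knockdown (0.35 ± 0.065, adjusted p = 8.08e-05) and CFIm68 knockdown (0.24 ± 0.059, adjusted p = 0.00119); its exons share bases with NACA on the same strand, so the value is uncertain.
POLA1, the catalytic subunit of polymerase alpha, had 256 and 256 CPM in CFIm25 knockdown, 237, 238 and 238 under CFIm68 knockdown, 279.7, 243 and 269.5 in CFIm25 overexpression, 254, 243 and 238 in CFIm68 overexpression, and 229, 218 and 204 in control. Every perturbed library was above every control. It rose in CFIm25 overexpression (0.28 ± 0.054, adjusted p = 5.45e-05), CFIm25 knockdown (0.24 ± 0.059, adjusted p = 0.00143), CFIm68 overexpression (0.17 ± 0.054, adjusted p = 0.0152) and CFIm68 knockdown (0.13 ± 0.053, adjusted p = 0.0367). The CFIm68 overexpression call was lost without control replicate 3 (0.13) or CFIm68 overexpression replicate 1 (0.15) and with the neighbours' median removed (0.067). The CFIm68 knockdown call was lost without control replicate 2 (0.14), control replicate 3 (0.09), CFIm68 knockdown replicate 1 (0.13), CFIm68 knockdown replicate 2 (0.13) or CFIm68 knockdown replicate 3 (0.13) and with that removal (0.10). POLD1, the catalytic subunit of polymerase delta, fell in CFIm25 knockdown (-0.21 ± 0.075, adjusted p = 0.0207), a call lost without control replicate 2 (-0.21), CFIm25 knockdown replicate 1 (-0.20) or CFIm25 knockdown replicate 2 (-0.23) and with that removal (-0.095). POLD3, another subunit of polymerase delta, rose in CFIm25 overexpression (0.33 ± 0.102, adjusted p = 0.0073, and 0.50 after removal). Its control level was the lowest per kilobase of exon with MCM7 left aside, while FEN1 was lower in CPM.

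FEN1 and LIG1, the flap nuclease and the ligase that finish Okazaki fragments one after the other, moved in opposite directions in the knockdowns. FEN1 had 11.7 and 11.8 CPM in CFIm25 knockdown, 10.8, 11.9 and 13.8 under CFIm68 knockdown, 5.53, 6.22 and 7.36 in CFIm25 overexpression, 6.497, 7.02 and 7.53 in CFIm68 overexpression, and 8.91, 7.32 and 9.20 in control. Both knockdowns lay above every other library, and both overexpressions reached into the control range. FEN1 rose in CFIm68 knockdown (0.52 ± 0.11, adjusted p = 0.00029) and CFIm25 knockdown (0.47 ± 0.12, adjusted p = 0.00267) and fell in CFIm25 overexpression (-0.42 ± 0.13, adjusted p = 0.00647), a call lost without CFIm25 overexpression replicate 1 (-0.31). Its counts are low and its exons overlap FADS2, so the value is uncertain.
LIG1 had 194 and 178 CPM in CFIm25 knockdown, 180.1, 195 and 188 under CFIm68 knockdown, 213, 227 and 247 in CFIm25 overexpression, 264, 299 and 306 in CFIm68 overexpression, and 259, 275 and 256 in control. The knockdowns were below every other library and CFIm68 overexpression overlapped control. LIG1 fell in CFIm25 knockdown (-0.50 ± 0.067, adjusted p = 6.65e-07), CFIm68 knockdown (-0.49 ± 0.060, adjusted p = 6.96e-08) and CFIm25 overexpression (-0.20 ± 0.060, adjusted p = 0.00544). The call in CFIm25 overexpression was lost without CFIm25 overexpression replicate 1 (-0.14) and with the neighbours' median removed (-0.11). RPA2, of the complex that coats unwound DNA, rose in CFIm68 knockdown (0.29 ± 0.050, adjusted p = 1.22e-05) and CFIm25 knockdown (0.25 ± 0.055, adjusted p = 0.000573). RPA1 rose in CFIm25 knockdown (0.21 ± 0.055, adjusted p = 0.00267) and CFIm68 knockdown (0.13 ± 0.050, adjusted p = 0.0227). Both RPA1 calls were lost with the neighbours' median removed (0.13 for CFIm25 and 0.072 for CFIm68), the CFIm25 call also without CFIm25 knockdown replicate 2 (0.18) and the CFIm68 call without control replicate 2 (0.11) or CFIm68 knockdown replicate 2 (0.12).

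Ribonucleotide reductase, which makes deoxynucleotides, joins RRM1 and RRM2 subunits, and RRM2 is the one known to accumulate in S phase. RRM2 had 230.1 and 229 CPM in CFIm25 knockdown, 271, 263 and 255 under CFIm68 knockdown, 166, 150.4 and 143 in CFIm25 overexpression, 130.2, 121 and 122 in CFIm68 overexpression, and 159.8, 156 and 166 in control. Both knockdowns stood above every other library, CFIm68 knockdown higher than CFIm25 knockdown, and CFIm68 overexpression stood below every other library. RRM2 rose in CFIm68 knockdown (0.71 ± 0.054, adjusted p = 6.79e-12) and CFIm25 knockdown (0.51 ± 0.059, adjusted p = 5.64e-08) and fell in CFIm68 overexpression (-0.37 ± 0.056, adjusted p = 9.32e-06), where removal of the neighbours' median (-0.23) left -0.14 and no call.
RRM1 did not pass the threshold against control in any group, with log2 fold changes of -0.02 to 0.12. TYMS, which makes thymidylate, fell in CFIm25 knockdown (-0.14 ± 0.056, adjusted p = 0.0395) and CFIm68 knockdown (-0.13 ± 0.050, adjusted p = 0.0306). Neither TYMS call held without a filter or with the neighbours' median removed (-0.13 in CFIm25 and -0.10 in CFIm68 knockdown). The CFIm25 call was also lost without control replicate 2 (-0.13), control replicate 3 (-0.12), CFIm25 knockdown replicate 1 (-0.14) or CFIm25 knockdown replicate 2 (-0.14), and the CFIm68 call without control replicate 2 (-0.12), control replicate 3 (-0.11) or CFIm68 knockdown replicate 1 (-0.10).

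The neighbours' values above come from all tested genes, and for members they ranged from -0.36 (ORC2, CFIm25 overexpression) to 0.32 (ORC5, CFIm25 overexpression). A shift shared by a stretch of chromosome therefore had a size like that of many member changes, and its part in them was not tested beyond its removal.

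**Figure D3:**
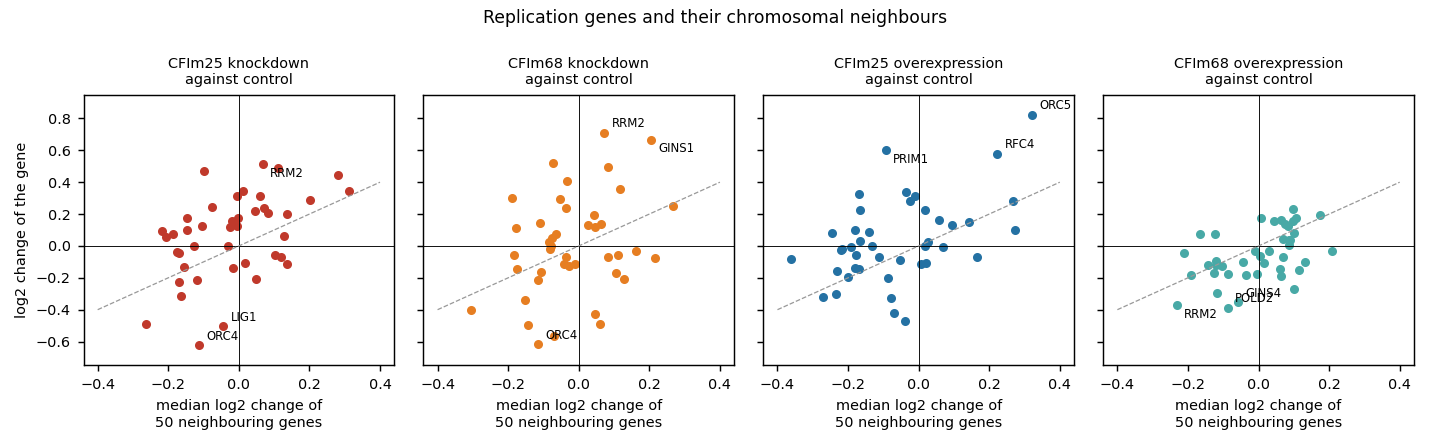
Log2 fold change of each of 42 replication genes against control (vertical axis) by the median log2 fold change of its 50 chromosomal neighbours (horizontal axis), 1 panel per perturbed group. The dashed line marks equal change; the 3 genes with the largest change are named in each panel, and ORC5 in CFIm25 overexpression lies at 0.32 on the horizontal and 0.82 on the vertical axis.

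To compare depletion of the 2 subunits directly, CFIm68 knockdown was set against CFIm25 knockdown. Of 42 members 3 were higher and 6 lower in CFIm68 knockdown (21.4% called, against 24.2% of all tested genes, 11.1% higher and 13.2% lower), and 28 did not overlap between the groups (56.3% of all tested genes). RFC3 differed most, at 105, 105 and 106 CPM in CFIm68 knockdown and 174 and 166 CPM in CFIm25 knockdown (-0.69 ± 0.056, adjusted p = 2.19e-10). MCM2 (-0.36 ± 0.052, adjusted p = 6.32e-06) and ORC2 (-0.27 ± 0.055, adjusted p = 0.000471) were also lower in CFIm68 knockdown, as were RFC2 (-0.25), RFC5 (-0.22) and RFC1 (-0.25), so that 4 of the 5 RFC subunits were lower there.
The higher members were GINS1 (0.22 ± 0.066, adjusted p = 0.0141), MCM5 (0.20 ± 0.055, adjusted p = 0.00808) and RRM2 (0.20 ± 0.059, adjusted p = 0.0148). All of these rest on 2 CFIm25 knockdown libraries. The GINS1 call was lost without CFIm25 knockdown replicate 1 (0.21), CFIm25 knockdown replicate 2 (0.24) or CFIm68 knockdown replicate 2 (0.20), the MCM5 call without CFIm25 knockdown replicate 1 (0.18) or with the neighbours' median removed (0.062), the RRM2 call without CFIm25 knockdown replicate 1 (0.20), CFIm25 knockdown replicate 2 (0.19) or CFIm68 knockdown replicate 1 (0.18), and the RFC1 call without CFIm25 knockdown replicate 1 (-0.18), CFIm68 knockdown replicate 2 (-0.21) or CFIm68 knockdown replicate 3 (-0.26) or with that removal (-0.23). With only these 2 groups in the fit, 5 members were higher and 12 lower.

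CFIm68 overexpression was likewise set against CFIm25 overexpression. Here 9 members were higher and 12 lower in CFIm68 overexpression (50% called, against 63.7% of all tested genes, 32.9% higher and 30.8% lower), and 21 did not overlap between the groups (63.8% of all tested genes). ORC5 stood at 32.5, 31.0 and 28.7 CPM in CFIm68 overexpression and 59.2, 53.6 and 55.4 CPM in CFIm25 overexpression (-0.87 ± 0.066, adjusted p = 4.36e-12; -0.34 after removal of the neighbours' median). PRIM1 (-0.75 ± 0.060, adjusted p = 1.1e-11) and RFC4 (-0.70 ± 0.055, adjusted p = 8.45e-12; -0.34 after removal) were lower by a similar amount. The largest positive differences were those of POLE (0.37 ± 0.053, adjusted p = 6.05e-07; 0.091 and not called after removal), LIG1 (0.34 ± 0.060, adjusted p = 1.48e-05; 0.18 after removal) and MCM5 (0.28 ± 0.050, adjusted p = 1.5e-05; 0.18 after removal). RRM2 was lower in CFIm68 overexpression (-0.30 ± 0.055, adjusted p = 2.84e-05), a direction that turned after that removal (0.095). Where the fit held only these groups 5 members were higher, and with the neighbours' median removed 20 were lower.

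Knockdown and overexpression of the same protein were also compared directly, a comparison that needs no control library and was added after the data were seen. In CFIm68 knockdown against CFIm68 overexpression 16 members were higher and 11 lower (64.3% called, against 67.1% of all tested genes, 33.7% higher and 33.5% lower), and 31 did not overlap between the groups (72.5% of all tested genes). RRM2 stood at 271, 263 and 255 CPM in CFIm68 knockdown and 130.2, 121 and 122 CPM in CFIm68 overexpression (1.08 ± 0.055, adjusted p = 4.09e-16), the largest difference of any member in any comparison made. GINS1 (0.96 ± 0.064, adjusted p = 1.85e-13; 0.64 with the neighbours' median removed), POLD2 (0.88 ± 0.049, adjusted p = 3.68e-15) and FEN1 (0.79 ± 0.12, adjusted p = 1.18e-06) were higher in the knockdown. ORC4 (-0.69 ± 0.062, adjusted p = 9.6e-11), LIG1 (-0.63 ± 0.060, adjusted p = 2.86e-10) and RFC5 (-0.61 ± 0.051, adjusted p = 1.94e-11) were lower in it. CDT1 was -0.59 and POLE -0.57, both called, with CDT1 at -0.12 and not called and POLE at -0.32 and called after that removal.

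**Figure D4:**
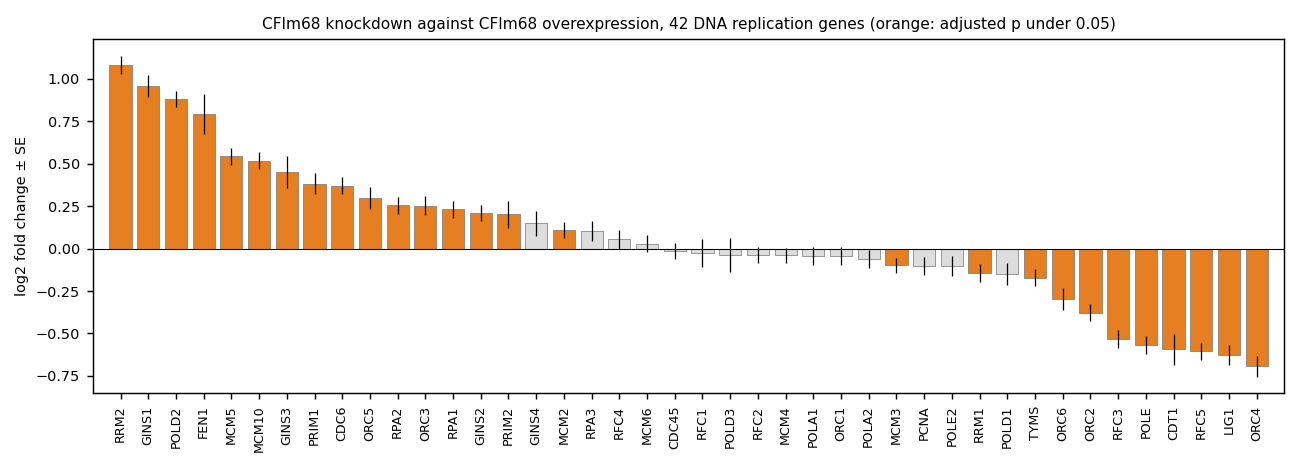
Log2 fold change with SE (vertical axis) of 42 replication genes in CFIm68 knockdown against CFIm68 overexpression, ordered by value; orange bars passed an adjusted p of 0.05. RRM2 is highest at 1.08 and ORC4 lowest at -0.69.

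In CFIm25 knockdown against CFIm25 overexpression 15 members were higher and 12 lower (64.3% called, against 56.1%, 28.6% higher and 27.5% lower), and 30 did not overlap between the groups (67.5% of all tested genes). FEN1 had 11.7 and 11.8 CPM in CFIm25 knockdown and 5.53, 6.22 and 7.36 CPM in CFIm25 overexpression (0.89 ± 0.13, adjusted p = 1.05e-06), and MCM5 (0.63 ± 0.054, adjusted p = 1.3e-10) and RRM2 (0.58 ± 0.059, adjusted p = 2.55e-09) were also higher in the knockdown. ORC4 (-0.61 ± 0.070, adjusted p = 2.81e-08), RFC4 (-0.52 ± 0.061, adjusted p = 3.76e-08) and ORC5 (-0.48 ± 0.070, adjusted p = 1.42e-06) were lower in it. Without CFIm25 knockdown replicate 2 the number lower was 6.

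Members were also read by the promoter words shown above. Of 11 tested members with a word, 1 was higher and 5 lower in CFIm25 knockdown, 1 higher and 7 lower in CFIm68 knockdown, 2 higher and 4 lower in CFIm25 overexpression, and 3 higher and 2 lower in CFIm68 overexpression. Of 25 members with a promoter and no word, the counts were 11 higher and 4 lower in CFIm25 knockdown, 11 and 4 under CFIm68 knockdown, 9 and 2 in CFIm25 overexpression, and 2 and 5 in CFIm68 overexpression. Median log2 fold changes of members with a word were -0.04, -0.14, -0.02 and 0.04 in those groups, and of members without one 0.17, -0.02, 0.08 and -0.10. All tested genes were higher and lower at 24.4% and 23.2%, 28.3% and 28.1%, 27.7% and 29.1%, and 14.5% and 15.4% in those groups. Few members stand behind each count, and the difference between members with and without a word was not tested. For TGTA near the 3′ end, 5 of the 14 members that were higher in CFIm25 knockdown had it and 4 of the 9 lower ones, and in CFIm68 knockdown 6 of 14 higher and 8 of 13 lower ones. In CFIm25 overexpression the counts were 7 of 12 higher and 6 of 9 lower members, and in CFIm68 overexpression 3 of 5 and 7 of 10. Among members not past the threshold it was present in 13 of 19 in CFIm25 knockdown and 8 of 15 in CFIm68 knockdown. The counts were 9 of 21 in CFIm25 overexpression and 12 of 27 in CFIm68 overexpression. TGTA was present in 54.5% of tested protein-coding genes, and these differences were not tested.

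Around the members, lists of related genes were counted in the same fits. Values of genes in all these lists are given without removal of the neighbours' median, and a shift shared with neighbouring genes was not tested for them. Among 13 tested genes of origin firing and licensing control, 2 were higher and 5 lower in CFIm25 knockdown, 1 and 5 under CFIm68 knockdown, 5 and 3 in CFIm25 overexpression, and 2 and 1 in CFIm68 overexpression. In those groups 53.8%, 46.2%, 61.5% and 23.1% of this list were called, against 47.6%, 56.4%, 56.7% and 29.8% of all tested genes. CDC7, the kinase that fires loaded origins, averaged 170.9 ± 5.61 CPM in CFIm25 overexpression and 96.2 ± 2.18 CPM in control (SD, n = 3 each; 0.83 ± 0.052, adjusted p = 1.43e-13). RECQL4, a helicase needed at origin firing, was lower in CFIm25 knockdown (-0.46 ± 0.079, adjusted p = 2.31e-05), CFIm68 knockdown (-0.45 ± 0.070, adjusted p = 3.63e-06) and CFIm25 overexpression (-0.70 ± 0.071, adjusted p = 2.5e-09).

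Among 22 tested genes of fork and clamp accessory factors, 5 were higher and 1 lower in CFIm25 knockdown, 5 and 4 under CFIm68 knockdown, 11 and 3 in CFIm25 overexpression, and 3 and 5 in CFIm68 overexpression. The shares called were 27.3%, 40.9%, 63.6% and 36.4%, against 47.6%, 56.4%, 56.7% and 29.8% of all tested genes. EXO1, a nuclease of repair and resection, rose in CFIm25 overexpression (0.81 ± 0.051, adjusted p = 1.66e-13), and so did RNASEH2B, a subunit of the enzyme that removes RNA from DNA (0.84 ± 0.058, adjusted p = 1.19e-12). CHTF18, of an alternative clamp loader, was lower in CFIm25 knockdown (-0.74 ± 0.096, adjusted p = 3.98e-07) and CFIm68 knockdown (-0.64 ± 0.085, adjusted p = 2.44e-07).
Nucleotide supply genes (15 tested) were 5 higher and 2 lower, 7 and 6, 3 and 3, and 1 and 6 in CFIm25 knockdown, CFIm68 knockdown, CFIm25 overexpression and CFIm68 overexpression. Their shares called were 46.7%, 86.7%, 40% and 46.7%, against 47.6%, 56.4%, 56.7% and 29.8% of all tested genes. TK1, which salvages thymidine, averaged 146 ± 10.2 CPM in CFIm68 overexpression and 227 ± 13.1 CPM in control (SD, n = 3 each; -0.63 ± 0.057, adjusted p = 1.66e-09).

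Of 27 tested genes of E2F, RB and S-phase entry, 9 were higher and 5 lower in CFIm25 knockdown, 12 and 5 under CFIm68 knockdown, 12 and 6 in CFIm25 overexpression, and 5 and 4 in CFIm68 overexpression. This made 51.9%, 63%, 66.7% and 33.3% called, against 47.6%, 56.4%, 56.7% and 29.8% of all tested genes. RBL2, an RB-family repressor of E2F targets, averaged 89.7 ± 4.02 CPM in CFIm68 knockdown and 183 ± 11.1 CPM in control (SD, n = 3 each; -1.03 ± 0.056, adjusted p = 5.75e-15). RBL1, of the same family, went the other way in CFIm68 knockdown (0.55 ± 0.065, adjusted p = 3.63e-08). It was also higher in CFIm25 knockdown (0.52 ± 0.071, adjusted p = 9.22e-07) and CFIm25 overexpression (0.64 ± 0.065, adjusted p = 3.46e-09), and lower in CFIm68 overexpression (-0.34 ± 0.069, adjusted p = 0.000372). CDKN1A, an inhibitor of cyclin-dependent kinases, was lower in CFIm25 overexpression (-1.24 ± 0.11, adjusted p = 1.39e-10) and higher in CFIm68 overexpression (0.37 ± 0.096, adjusted p = 0.00412). E2F2, an activating E2F factor, was higher in CFIm25 overexpression (0.84 ± 0.051, adjusted p = 5.78e-14). Chromatin assembly genes (12 tested) were 3 higher and 2 lower, 4 and 4, 5 and 3, and 1 and 3 in the same order of groups. Of this list 41.7%, 66.7%, 66.7% and 33.3% were called, beside the same shares of all tested genes. TONSL, which reads new histones behind the fork, was lower in both knockdowns (-0.82 in CFIm25 and -0.82 in CFIm68) and in CFIm25 overexpression (-0.88), and higher in CFIm68 overexpression (0.28 ± 0.072, adjusted p = 0.00363).

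Mitotic genes, listed to set replication genes beside another phase of the cycle, were more often lower than higher in all 4 groups: of 24 tested, 4 were higher and 7 lower in CFIm25 knockdown, 4 and 6 under CFIm68 knockdown, 2 and 14 in CFIm25 overexpression, and 0 and 6 in CFIm68 overexpression. All tested genes were higher and lower at 24.4% and 23.2%, 28.3% and 28.1%, 27.7% and 29.1%, and 14.5% and 15.4% in those groups. Of the mitotic list 45.8%, 41.7%, 66.7% and 25% were called, against 47.6%, 56.4%, 56.7% and 29.8% of all tested genes. Only in CFIm25 overexpression was the share called above that background. The median log2 fold change of the mitotic genes in CFIm25 overexpression was -0.19, against -0.00 for the replication genes. BUB1, a spindle checkpoint kinase, averaged 120.4 ± 4.01 CPM in CFIm25 overexpression and 231 ± 7.42 CPM in control (SD, n = 3 each; -0.94 ± 0.049, adjusted p = 3.76e-15). The 4 groups were set against the same 3 control libraries, so their directions are not independent. No test compared these lists with the replication genes.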

How the data were processed

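RNA of 14 HEK 293 libraries was prepared with a TruSeq Stranded mRNA kit, per the labels' protocols. The submitters' processing notes list cutadapt 1.16, STAR 2.7.1a and the build hg38. How reads were counted (tool, annotation, strand) the sources used here do not say. The deposited values are raw counts per gene, made by the authors, for 18006 genes, of which 2524 were at 0 in every library and 17983 had a name in GENCODE 29. Total counts ran from 15822467 to 33895308 per library, and replicates of a group correlated at 0.9933 to 0.997 across genes.

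Counts were scaled by TMM and filtered with filterByExpr (minimum count 10, minimum total 15), which left 12080 genes. One model with a coefficient per group and all 14 libraries was fitted with edgeR 4.0.16 (quasi-likelihood test, common biological coefficient of variation 0.0501, R 4.3.3), and p-values were adjusted by Benjamini-Hochberg over all tested genes, with a threshold of 0.05. The scripts were tested on simulated data. Alternatives were median-ratio size factors, other filters, a replicate block, DESeq2 1.42.0, voom in limma 3.58.1, only the compared groups, each library left out, and removal of the median change of 50 neighbouring genes (25 tested genes on each side).

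The members and lists were chosen with earlier results of these data known. Values in every library are given for the 4 members with the largest change in each direction against control (3 in the direct comparisons) among those past the threshold, at 5 CPM or more and without overlap between groups, and for the MCM ring and PCNA; other lists name genes of smallest adjusted p, and further members named with values were chosen after these were seen. Comparisons of knockdown with overexpression were added after the data were seen. Sequences are from RefSeq (GRCh38.p14), where 37 members had a promoter, and from GENCODE 29 transcripts (hg38).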

Additional observations from a re-analysis of the deposited data

How the results depend on the processing

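Of 170 calls of members over 8 comparisons, 89 kept direction and call under every alternative run and 81 lost the call or turned direction at least once. Counts moved by over 1.5 times in these cases. Removing neighbours' medians gave 3 members higher in CFIm68 overexpression against control (5 as reported) and 20 lower in CFIm68 against CFIm25 overexpression (12). Fitting only the compared groups gave 5 higher and 12 lower in CFIm68 against CFIm25 knockdown (3 and 6) and 5 higher in CFIm68 against CFIm25 overexpression (9). Leaving out 1 library gave the following ranges of higher and lower members. CFIm25 knockdown against control had 12 to 17 and 6 to 8, CFIm68 knockdown 12 to 14 and 12 to 14, CFIm25 overexpression 12 to 13 and 7 to 10, and CFIm68 overexpression 2 (without control replicate 1) to 6 and 7 to 11. CFIm68 against CFIm25 knockdown had 0 (without CFIm25 knockdown replicate 1; 1 without its replicate 2) to 3 and 5 to 7, CFIm68 against CFIm25 overexpression 7 to 8 and 12 to 13, CFIm25 knockdown against overexpression 11 to 17 and 6 (without CFIm25 knockdown replicate 2) to 14, and CFIm68 knockdown against overexpression 14 to 17 and 9 to 12. Among values called before or after removal of the neighbours' medians, signs turned in 29. In CFIm25 knockdown against control these were MCM3 (0.135) and MCM6 (0.024); in CFIm68 knockdown MCM6 (0.034), ORC5 (-0.013) and POLA2 (0.128). In CFIm25 overexpression they were MCM3 (0.183), MCM4 (0.007), ORC2 (0.276), ORC4 (0.200), GINS1 (-0.175), GINS2 (0.072), RFC2 (0.120) and POLE (0.040), and in CFIm68 overexpression MCM2 (0.011). In CFIm68 against CFIm25 overexpression they were CDT1 (-0.175), GINS2 (-0.305), RFC2 (-0.143), POLD1 (-0.072), POLE2 (0.162), RRM1 (-0.158) and RRM2 (0.095), and in CFIm25 knockdown against overexpression MCM4 (-0.165). In CFIm68 knockdown against overexpression they were MCM2 (-0.299), MCM3 (0.012), ORC5 (-0.178), CDC45 (0.158), RFC4 (-0.170), POLA2 (0.209) and RRM1 (0.021). CDT1 in CFIm25 overexpression against control ran from -0.134 (without its replicate 3) to 0.153 (without its replicate 1). The cause was not tested. Same-numbered libraries deviated together in 3 of 26 pairs (r over 0.1, range -0.063 to 0.171), against 0 of 52 differently numbered pairs (range -0.184 to 0.084). All 3 pairs held a CFIm25 overexpression library. Whether the numbers mark a pairing was not tested. With a replicate block the counts higher and lower against control were 14 and 9 (CFIm25 knockdown), 15 and 14 (CFIm68 knockdown), 13 and 12 (CFIm25 overexpression) and 7 and 12 (CFIm68 overexpression). They were 3 and 7 between knockdowns, 9 and 14 between overexpressions, and 15 and 12 and 16 and 13 for CFIm25 and CFIm68 knockdown against overexpression. Only 2 CFIm25 knockdown libraries and low counts of FEN1, GINS3 and POLD3 limit precision.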
